A study of Caenorhabditis elegans with 2 samples.

Results

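The genes rpr-1 and mrpr-1 encode the RNA subunits of RNase P and RNase MRP in the nematode Caenorhabditis elegans, and this account describes where the tagged homeodomain factor CEH-24 was recovered at them. The 2 genes were taken by name out of 46890 genes annotated on the nuclear chromosomes. They were picked from peak values of these same data, so their signals and ranks are given as a description with no test. The data are chromatin immunoprecipitation and sequencing (ChIP-seq) peak lists from 1 group of 2 biological replicates. Each replicate consisted of whole late embryos, males and females pooled, taken 5 h after synchronization by egg bleaching. They came from strain OP673, unc-119 (tm4063) III; wgIs673, in which a transgene expresses CEH-24 carrying a C-terminal GFP-FLAG tag, and an antibody to GFP was used. The labels name no second condition, both replicates share 1 control, and whole animals were used, so nothing here says in which cells the factor was recovered.

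RNase P cuts the leader off precursor tRNAs, and in the nuclear RNase P of animals the catalytic part is an RNA. RNase MRP has a related RNA and shares most of its protein subunits, and it is known for cutting precursor ribosomal RNA. In vertebrates both RNAs are made by RNA polymerase III from promoters that lie wholly upstream of the gene, with a proximal sequence element bound by the SNAPc complex and a TATA box near the start. In this they resemble U6 small nuclear RNA genes and differ from tRNA genes, whose promoter elements lie inside the gene.

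The RNA-coding sequence of mrpr-1 (chrII:7200233-7200418) and the 100 bases before it are shown because the peak summits lie where they meet. Both were read from the RefSeq genome of assembly WBcel235, which is the ce11 build of the peak lists, on the plus strand. Capitals in the upstream stretch (chrII:7200133-7200232) mark 2 blocks shared with rpr-1 and a TATA word, which are described further on.
mrpr-1 upstream: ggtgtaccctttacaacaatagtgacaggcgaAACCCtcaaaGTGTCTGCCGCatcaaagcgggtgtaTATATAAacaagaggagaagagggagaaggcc
mrpr-1 gene: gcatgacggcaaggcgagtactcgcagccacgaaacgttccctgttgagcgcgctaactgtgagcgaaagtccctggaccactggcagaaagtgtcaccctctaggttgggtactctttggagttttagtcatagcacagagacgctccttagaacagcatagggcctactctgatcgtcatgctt

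Both genes are annotated as ncRNA in Ensembl release 115. The gene mrpr-1 (WBGene00045095) is 186 bases long and rpr-1 (WBGene00045238) is 253 bases long.

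The strongest recovery at either gene was centred on the 5′ end. The 4 lists used were a relaxed list per replicate (30000 peaks in replicate 1 and 28119 in replicate 2), a relaxed list of both replicates pooled (30000 peaks), and the 276 optimal peaks that passed the authors' reproducibility threshold. Most entries of the relaxed lists are background, since only 420 pooled peaks, 228 in replicate 1 and 729 in replicate 2 have a deposited q-value not above 0.05. An optimal peak need not rank high in both replicates. Of the 276, 273 overlapped a peak in both replicate lists. By nearest summit, the optimal peak with its summit at chrII:255349 matched rank 9587 in replicate 1 and rank 68 in replicate 2. The replicate ranks at rpr-1 and mrpr-1 are therefore given below. Read totals are not in the lists, so the depth is unknown. Signal values are those the authors deposited, on a scale that differs between lists, so ranks within a list are given beside it. Positions count from 0 at the first base of the gene, and negative positions are upstream.

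The gene rpr-1 lies on the plus strand of chromosome I, from 13463955 to 13464207. Its highest pooled peak (chrI:13463692-13464187) had its summit at 13463940, position -15, with a signal of 312 and rank 11. In replicate 1 the highest peak at the gene had a signal of 152, rank 22 and its summit at -20. In replicate 2 it had a signal of 169, rank 10 and its summit at 37. All 3 lists therefore placed it among their 22 highest peaks, with 10 pooled peaks above it.

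At mrpr-1 the highest pooled peak (chrII:7199983-7200478) had its summit at 7200231, position -2, with a signal of 183 and rank 72. In replicate 1 the signal was 68.4, at rank 166 and position -64. In replicate 2 it was 112, at rank 42 and position 23. The peak at mrpr-1 was thus lower than that at rpr-1 in each replicate list and in the pooled list, and its rank differed more between the replicates. Its signal in replicate 2 was 1.64 times that in replicate 1, against 1.11 times at rpr-1. Over the 273 optimal peaks matched in both lists the median of this ratio was 0.959, with quartiles of 0.750 and 1.27. The highest peak at mrpr-1 thus lay above the upper quartile and that at rpr-1 between the quartiles.

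**Figure D1:**
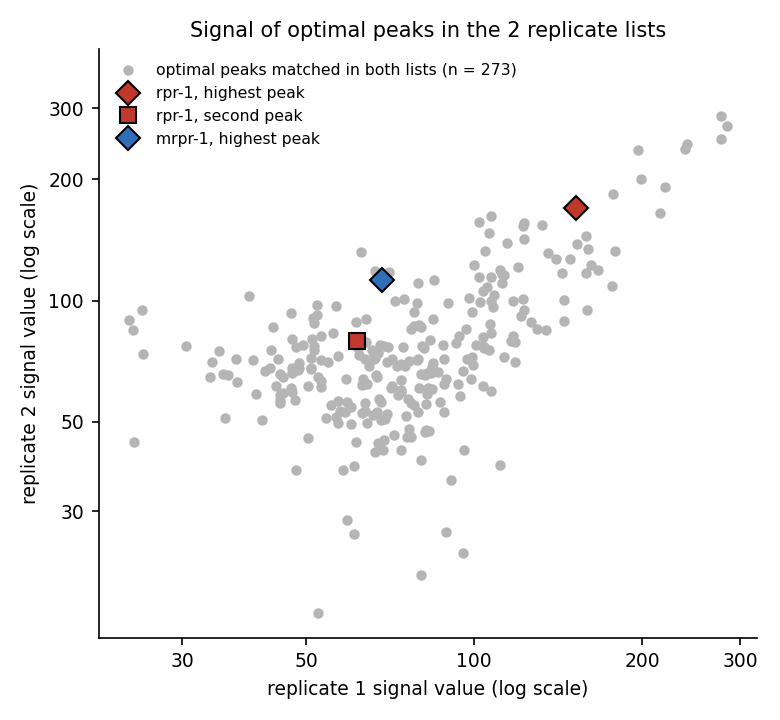
Signal value of optimal peaks in the replicate 1 list (horizontal, log scale) and the replicate 2 list (vertical, log scale); each grey point is 1 of the 273 peaks matched in both. The rpr-1 peak (152 and 169) lies among the highest, and the mrpr-1 peak (68.4 and 112) lies toward replicate 2.

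Each gene also had a second, lower peak. At rpr-1 the second pooled summit was at 200, inside the gene, with a signal of 143 and rank 131. It had signals of 61.6 in replicate 1 (rank 212, position 179) and 79.5 in replicate 2 (rank 105, position 237). Its signal in replicate 2 was 1.29 times that in replicate 1, above the upper quartile of 1.27 over the matched optimal peaks. This second peak was also an optimal peak, so rpr-1 had 2 of the 276 and mrpr-1 had 1. At mrpr-1 the second pooled summit lay at 210, which is 25 bp past the 3′ end, with a signal of 29.1, rank 22999 and a q-value of 0.91. The replicate 2 list held it at 32.2 (rank 3392, q-value 0.312, position 222), and the replicate 1 list held no second peak there. It is not among the optimal peaks. The pooled summits were 215 bp apart at rpr-1 and 212 bp apart at mrpr-1. Neighbouring summits were never closer than 199 bp in any of the 4 lists, and the first and second peaks overlap. Of the 276 optimal peaks, 194 (70.3%) overlapped another pooled peak and 28 (10.1%) another optimal one. Whether the second peak at rpr-1 is a binding site of its own or the flank of the first was not tested.

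**Figure D2:**
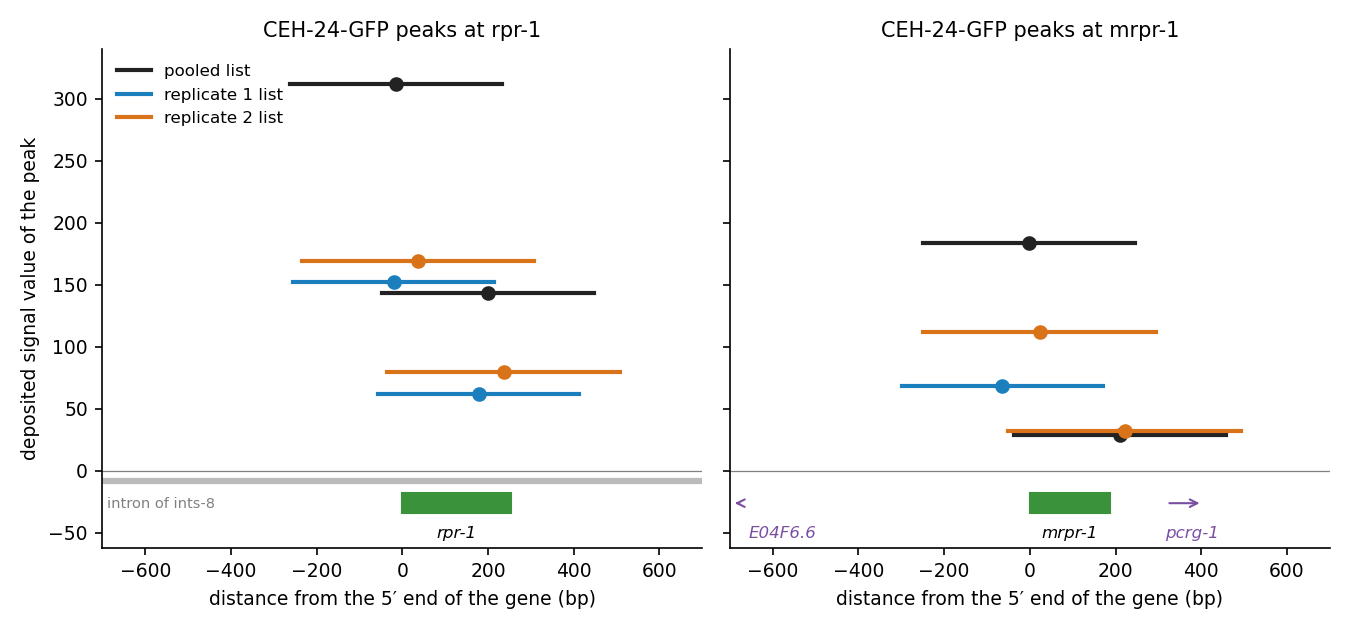
Peaks within 1000 bp of rpr-1 (left) and mrpr-1 (right), with distance from the gene's 5′ end in bp on the horizontal axis and the deposited signal value on the vertical axis; bars span the peak and dots mark the summit. The highest summits lie between -64 and 37, and the vertical scale is not the same quantity in each list, so heights are comparable between the panels and not between colours.

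How finely these positions can be read is limited by the lists. A width of 496 bp was shared by 99.9% of pooled peaks, of 470 bp by nearly all in replicate 1 and of 544 bp by nearly all in replicate 2, with the summit in the middle. Peak edges thus carry no measurement of their own. The highest summit moved by 57 bp between the replicates at rpr-1 and by 87 bp at mrpr-1, downstream in replicate 2 in both cases. Over the 273 matched optimal peaks the median absolute shift was 38 bp, with quartiles of 18 and 78 bp. The position at rpr-1 was therefore within the usual spread, and that at mrpr-1 was past the upper quartile. A summit could not be assigned to the upstream bases rather than the first bases of the RNA at either gene.

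Because the rule that chose the genes used these peaks, the share of genes with a peak is given only as background. An optimal peak lay within 1000 bp of 1.58% of all annotated genes, 1.54% of noncoding RNA genes, and 2.32% of the 7764 genes annotated as ncRNA. The share was 18.6% for tRNA genes, 13.9% for snoRNA genes and 5.43% for snRNA genes. At least 2 optimal peaks, as at rpr-1, lay within that distance of 20 noncoding RNA genes (0.0807%).

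The surroundings of the genes differ. The whole of rpr-1 lies in an intron of ints-8, antisense to it. That gene encodes a subunit of the Integrator complex, which processes the 3′ ends of small nuclear RNAs. The intron (13462739 to 13464761) is 2023 bases long and is intron 5 of 9 in the longer transcript and intron 1 of 5 in the shorter. It leaves 1216 bases before and 554 bases after rpr-1. The start of the shorter transcript, at 13464846, was 906 bp from the pooled summit, which lies downstream of it in the first intron of that transcript. The peak is therefore also counted at ints-8 where both sides of a start are searched. At the start of the longer transcript, at 13470371, the highest of 2 pooled peaks within 1000 bp had a signal of 84.3 and rank 454, with its summit 46 bp upstream. That peak had a q-value of 0.0584 and is not an optimal peak. The nearest other pooled peak on the opposite side of rpr-1 was 2957 bp away and ranked 9602.

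The gene mrpr-1 lies between a pair of protein-coding genes. Relative to the start of E04F6.6, on the minus strand, the pooled summit was at -666. Relative to the start of pcrg-1, on the plus strand, it was at -318. The summit was thus upstream of both genes, and 130 bases separate the end of mrpr-1 from pcrg-1. The mrpr-1 peak was the highest pooled peak within 1000 bp of either start, so it is counted at these genes as well. Of all protein-coding genes, 1.12% had a start that close to an optimal summit. No other noncoding RNA gene was annotated within 1000 bp of rpr-1 or of mrpr-1. The next pooled peaks were 15238 bp and 10128 bp from mrpr-1, at ranks 26887 and 13118. None of the 166 words of 36 bases within 100 bp of the 5′ end of rpr-1 or of mrpr-1 occurred at another place in the nuclear genome.

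The upstream sequences share an arrangement that the choice of the genes did not use. In the best ungapped match of their 100 upstream bases, 19 of 25 positions were identical, from -70 to -46 at rpr-1 and from -72 to -48 at mrpr-1. The next best match at any other offset had 14 identical positions. Taking the runs of at least 5 identical bases, and joining GTGTC and GCCGC across the differing base N, gave 2 blocks. These are AACCC and GTGTCNGCCGC, which lie 5 bases apart in both genes. This description was made after the sequences had been seen. The block GTGTCNGCCGC began at -56 in rpr-1 and at -58 in mrpr-1. The word TATAA began at -28 in rpr-1 and at -30 in mrpr-1, so 17 bases separated the block from it in each gene. The longest words common to both upstream stretches had 7 letters, GTATATA and TATATAA, and both belong to this TATA region.

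Among other genes the arrangement was rare. The words were searched on both strands of the 100 bases upstream. The block GTGTCNGCCGC was found upstream of 11 of 24787 other noncoding RNA genes (0.0444%) and of 2 of 29773 protein-coding starts (0.00672%). Among windows of 201 bases around summits, the block was in 2 of the 276 optimal ones (0.725%), those of rpr-1 and mrpr-1. Of the 29724 other pooled windows, 88 (0.296%) held the block. With AACCC in front at the same spacing it was found upstream of 7 other noncoding RNA genes (0.0282%) and of no protein-coding start, snRNA gene, tRNA gene or srpr gene. The word TATATAA was present upstream of 3.07% of other noncoding RNA genes, 14% of snRNA genes and 3.54% of protein-coding starts. TATAA alone is common, at 28.4% of other noncoding RNA genes. Of the 7 other genes, 3 are annotated as snoRNA, 3 as ncRNA and 1 as miRNA. For 5 of them the bases from position -75 to -21 are shown on the gene's strand, from the same RefSeq genome, with both blocks and TATAA in capitals, to be read beside the mrpr-1 stretch. They lie at chrII:14636114-14636168 (lfor-1), chrII:14641636-14641690 (lfor-2), chrII:11167325-11167379 (K07C10.6), chrIV:14327142-14327196 (Y67A10A.14) and chrX:2328919-2328973 (cel-mir-8196a), the last on the plus strand and the others on the minus strand.
lfor-1: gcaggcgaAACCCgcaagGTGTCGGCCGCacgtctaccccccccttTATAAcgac
lfor-2: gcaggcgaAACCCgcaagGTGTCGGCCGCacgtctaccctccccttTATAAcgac
K07C10.6: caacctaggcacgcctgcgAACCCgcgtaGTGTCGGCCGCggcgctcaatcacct
Y67A10A.14: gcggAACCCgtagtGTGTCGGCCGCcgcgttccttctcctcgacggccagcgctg
cel-mir-8196a: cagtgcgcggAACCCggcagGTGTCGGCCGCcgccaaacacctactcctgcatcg

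No other noncoding RNA gene with the block had an optimal peak. Of the 13 noncoding RNA genes with the block on their own strand, rpr-1 and mrpr-1 had an optimal peak within 250 bp. The other 11 had none, also within 1000 bp. Of all noncoding RNA genes, 1.18% had an optimal peak within 250 bp and 1.54% within 1000 bp. With shares this low, 0 of 11 tells nothing about the block. Protein-coding starts are not in this count. Of the 11, 6 had some pooled peak within 250 bp, with signals from 26.2 to 53.5 and 3054 as the best rank. The genes lfor-1 and lfor-2, both annotated as ncRNA on chromosome II, come closest to mrpr-1 and rpr-1 in layout, with the block at -57, TATAA at -29 and the same 17 bases between them. Neither had a pooled peak within 250 bp. Within 1000 bp, lfor-2 had none, while lfor-1 had one of signal 102, with its summit at 603, past the gene's 3′ end. It ranked 278 in the pooled list, just outside the 276 optimal peaks. Of the 166 words of 36 bases around their 5′ ends, 94 at lfor-1 and 121 at lfor-2 occurred elsewhere in the genome too, against 0 at rpr-1 and mrpr-1. The part of these repeats in the signals was not tested. At K07C10.6, where no such word was repeated, the highest pooled peak within 1000 bp had a signal of 62.8 and rank 1442, at 448, and none lay within 250 bp. At cel-mir-8196a, also with 0 repeated words, the highest pooled peak had a signal of 42.4 and rank 7928. Unlike lfor-1 and lfor-2, K07C10.6 and cel-mir-8196a have no TATAA with the block, so their layout is not the same. Repeated words were also found at Y67A10A.14 (44), T26A8.6 (28), F25H2.15 (70) and F59C6.15 (83). None were found at CD4.17, Y55F3BR.9 and T06D8.11.

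**Figure D3:**
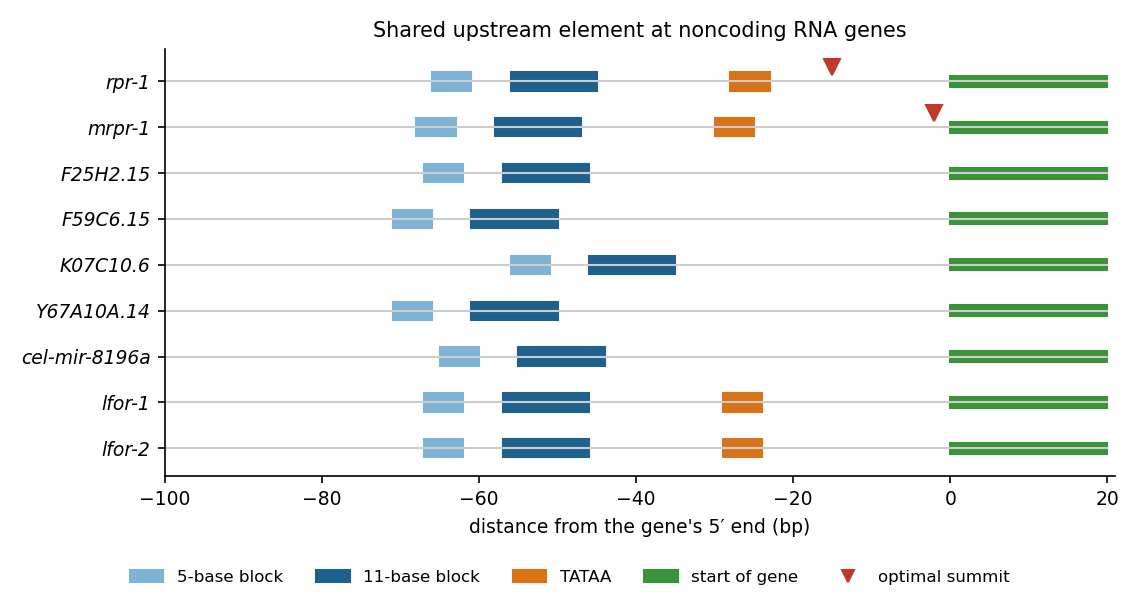
The 9 noncoding RNA genes with both blocks upstream, drawn by distance from the gene's 5′ end in bp; light and dark blue boxes are the blocks of 5 and 11 bases, orange is TATAA, green is the start of the gene and red triangles are optimal summits. Summits stand at rpr-1 (-15) and mrpr-1 (-2), while lfor-1 and lfor-2 have the same boxes and no optimal summit.

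RNA polymerase III is known to stop at runs of T, so the 3′ ends were searched for one. At rpr-1 a run of 5 T begins with the last 2 bases of the gene, and at mrpr-1 a run of 4 T does. The 3′ end of mrpr-1 (chrII:7200399-7200428) is shown with that run in capitals.
mrpr-1 3′ end: ctactctgatcgtcatgcTTTTgcaacatt
A run of 4 T within 5 bases before to 10 bases after the 3′ end was present at 23.5% of other noncoding RNA genes, so the run is common. A run of 4 T also lies inside mrpr-1, at 1 place, and rpr-1 holds 0 inside.

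Words known as sites of NK-2 class homeodomains, the class of CEH-24, were looked for around the summits. The site TNAAGTG was in no window of 201 bases around an optimal summit at rpr-1 or mrpr-1, against 6.16% of all optimal windows and 9.11% of other pooled windows. Its core AAGTG was absent from the rpr-1 windows and present at 2 places in the mrpr-1 window, at -60 and at 89, while 41.7% of optimal windows and 36% of other pooled windows held at least 1. The upstream one runs into the block, since its last 3 letters are the first 3 of GTGTCNGCCGC. The word GTTCNANNC, which covers most of the B box inside tRNA genes, was in none of the 3 windows, against 43.5% of optimal windows and 6.8% of other pooled windows. The word CGCACA was searched as well, and not as an NK-2 class site. It was present upstream of rpr-1 at -92 and not at mrpr-1, against 19.9% of optimal windows and 5.04% of other pooled windows. The absence of these letters says nothing of whether the factor binds there. The window around the highest summit held 62.2% G and C at rpr-1 and 53.7% at mrpr-1, against a mean of 44.2% over the optimal windows and 35.8% over the others.

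The pooled summits at rpr-1 and mrpr-1 lay between the median summits of snoRNA and tRNA genes. The median summit was at -44 for the 43 snoRNA genes with an optimal peak within 250 bp (quartiles -65.5 and -8.5) and at 24 for the 99 tRNA genes (quartiles -9.5 and 53). For the 130 other ncRNA genes, srpr genes not counted, the median summit was at 64 (quartiles 0.25 and 118). Many of these genes share their summit with a tRNA or snoRNA gene, often on the opposite strand, so the classes are not separate sets of peaks. For example, 1 summit is at 90 of C02B4.8 and at 5 of the tRNA gene WBGene00009555. The median summit was at 137 for the 6 snRNA genes. U6 genes are not told apart by name in the annotation used, and 3 of the 6 are spliced leader genes (sls-2.1, sls-2.2 and sls-2.4), so this class does not stand for U6. An optimal peak within 250 bp was found at 1.18% of noncoding RNA genes. The pooled summits at rpr-1 (-15) and mrpr-1 (-2) fall inside the quartile range of the tRNA genes for mrpr-1 and inside that of the snoRNA genes for rpr-1. Both lie below the lower quartile of the other ncRNA genes, while the replicate 2 summits, at 37 and 23, lie above that quartile. With 2 genes, and a shift between replicates as large as these distances, no difference from the snoRNA, tRNA or other ncRNA genes can be read.

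**Figure D4:**
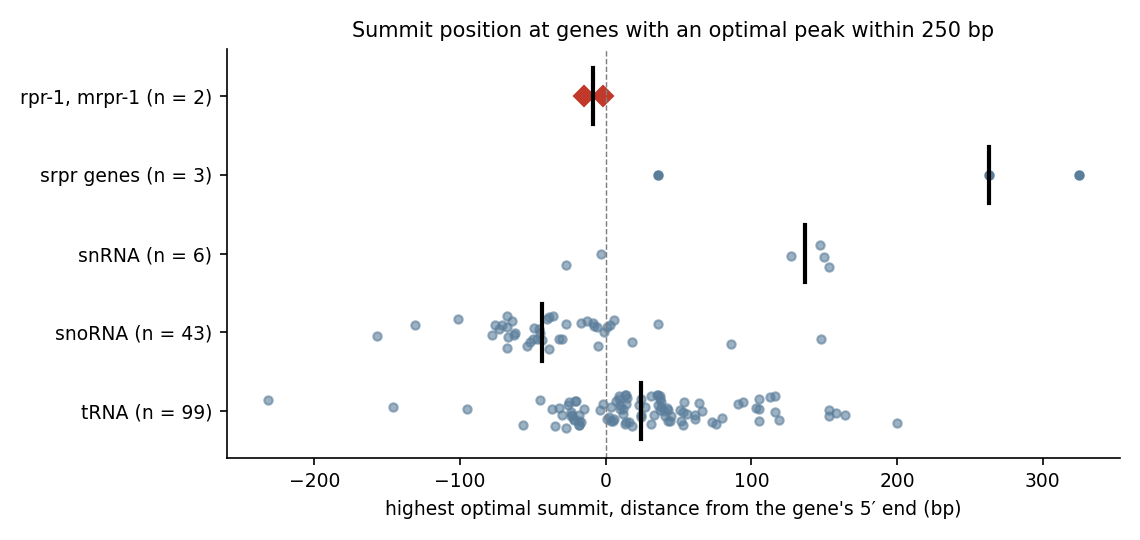
Position of the highest optimal summit at genes with an optimal peak within 250 bp, in bp from the gene's 5′ end; each dot is a gene and the black bar is the class median. The rpr-1 and mrpr-1 summits (-15 and -2) lie next to the 5′ end, with medians of -44 for snoRNA and 24 for tRNA genes. The 130 other ncRNA genes (median 64) are not drawn.

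Genes for the signal recognition particle RNA, which are named srpr and whose RNA belongs to a complex that targets proteins to the endoplasmic reticulum, are given beside them with no test. Of the 5 srpr genes, 3 had an optimal peak within 250 bp, against 1.18% of noncoding RNA genes. The srpr-2.2 summit was at 36 (pooled signal 225, rank 37), that of srpr-1.2 at 263 (111, rank 231) and that of srpr-1.1 at 325 (130, rank 165). The srpr-1.2 peak was high in replicate 2 only, with a signal of 24.0 and rank 11647 in replicate 1 against 89.7 and rank 79 in replicate 2. Ranks in replicates 1 and 2 were 48 and 45 at srpr-2.2, and 147 and 172 at srpr-1.1. Position 325 lies beyond the end of srpr-1.1, which is 298 bases long. The highest summits at srpr-2.1 and srpr-3 were at 211 and 226, with signals of 97 and 70.2, and were not optimal. All 5 srpr summits were downstream of the 5′ end, while the highest pooled summits of rpr-1 and mrpr-1 were just upstream of it and those in replicate 2, at 37 and 23, just downstream.

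The genes most like rpr-1 in signal, by distance of log2 signal over the 2 replicates among other noncoding genes with an optimal peak within 250 bp, were C14F11.14 (an ncRNA gene, distance 0.24), the snoRNA gene T02E1.9 (0.25) and the ncRNA gene F36H1.17 (0.35). The microRNA gene cel-mir-51 shares the F36H1.17 peak and is thus at the same distance. The genes most like mrpr-1 were a tRNA gene on chromosome X (WBGene00023117, distance 0.083), and F22F1.6 and the tRNA gene WBGene00023008, which share 1 peak (0.088). In pooled rank the next peaks above rpr-1 lay near the snoRNA genes T02E1.9 (360.3) and ZK265.10 (390.3). The next below it lay inside twk-5 (308), 79 bp from the snoRNA gene B0334.12, and the one after in the ncRNA gene F52D10.9 (303). Next to mrpr-1 were F22F1.6 (185) and WBGene00023117 (184) above, and a tRNA gene on chromosome IV (WBGene00023019, 183.3) and pdl-1 (183.2) below. The pdl-1 summit is at position -49 of the snoRNA gene C27H5.9. Next to the second rpr-1 peak were F46G11.11 (143.9) and C03B1.2 (143.6) above, and erfa-3 (143.4) and cox-5B (143.1) below. The C03B1.2 summit, at 1337 from the start of that gene, is at position -24 of the tRNA gene WBGene00006316.

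The genes for protein partners of these RNAs that could be matched had no optimal peak. Of 15 symbols looked for as RNase P and MRP proteins, 4 matched an annotated gene, namely popl-1, popl-4, popl-5 and popl-7, so most of that list was not examined. Of these, 0 of 4 had an optimal summit within 1000 bp of their start, against 1.12% of protein-coding genes. The best pooled peaks were at popl-4 (signal 39, rank 10534) and popl-1 (signal 27, rank 26940), and popl-5 and popl-7 had none. Of 3 further genes that RefSeq names as RNase P proteins, H35B03.2 and Y62E10A.24 had no pooled peak and Y37E11AM.4 had one of signal 33.9. Of 4 symbols for genes that process tRNA ends, 2 matched. Of these, hoe-1, which encodes the enzyme that trims tRNA 3′ ends, had a pooled peak of signal 39.8 and hpo-31 had none.

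Genes for the transcription machinery of RNA polymerase III were likewise without an optimal peak. Of 13 symbols for promoter factors, 9 matched an annotated gene, and 0 of the 9 had one. They included snpc-4, for a subunit of SNAPc, tbp-1, for the TATA-binding protein, and brf-1. The highest pooled signal among them was 41.6, at snpc-3.4. Of 14 symbols for polymerase subunits, 6 matched, and 0 of the 6 had an optimal peak. Their highest pooled signal was 68.6, at rpac-19 (rank 992, q-value 0.168, summit 154 bp upstream). Of the 19973 protein-coding genes, 49.98% had some pooled summit in that range, and the median of their highest signals was 37.9. Counts of 0 in lists this short cannot show that these genes are bound less often than others.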

How the data were processed

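ChIP-seq peak lists of 2 biological replicates, as the labels number them, were used. Per the notes deposited with the files, these are lists of peaks and background for each replicate and for both pooled, and an optimal list past the authors' reproducibility threshold, all on the ce11 build and derived with 1 shared control. The sources used here give no aligner, peak caller or settings. The signal value and the −log10 q-value of each peak are used as the authors deposited them. The lists hold no read totals, so the depth is unknown, and no test was made.

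Peaks were ranked by signal within a list. A peak belonged to a gene where its summit lay within 1000 bp. Peak ends fell inside the reference chromosomes on all 6. Each optimal peak was matched to the replicate peak with the nearest summit among those overlapping it. Genes came from Ensembl release 115 and sequence from RefSeq, assembly WBcel235. Lists on the ce10 build were not used. Python 3.11.15, numpy 2.4.6, pandas 2.3.3 and matplotlib 3.10.9 were used. Distances and word searches were tested on simulated data. Alternatives were 1 replicate alone, other windows, ranks by q-value, merged peaks, midpoints and another way of matching.

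The genes, gene lists and words were chosen with earlier results of these data known. By rule, the text names rpr-1 and mrpr-1, their coding neighbours, the 2 optimal peaks next above and below each in rank, and the 3 noncoding RNA genes nearest in replicate signals. Genes of the protein lists, srpr genes, genes with the shared blocks and the 3 proteins named by RefSeq were added to these after their values were seen.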

Additional observations from a re-analysis of the deposited data

How the results depend on the processing

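The 2 optimal peaks at rpr-1 and the 1 at mrpr-1 were found with windows of 250, 500, 1000 and 2000 bp. Left with 1 replicate at a time, the rank of the highest peak ranged from 10 to 22 at rpr-1 (11 pooled) and from 42 to 166 at mrpr-1 (72 pooled), and its position ranged from -20 to 37 at rpr-1 and from -64 to 23 at mrpr-1. The replicate 1 list alone gave the lower place at both genes, and the cause was not tested. Ranked by the deposited q-value, the rpr-1 peak had rank 1, a tie of 165 pooled peaks at the same value, which also holds mrpr-1. With overlapping pooled peaks merged the ranks were 11 and 70, and peak midpoints gave -16 and -3. The share of noncoding RNA genes with a peak was 1.18% to 2.03% over all alternatives, with 1.54% as reported. No RNase P or MRP protein gene of the 4 had an optimal peak within 250 or 500 bp either. No paired analysis was possible because there is 1 group. Matching each optimal peak to the highest overlapping replicate peak, an alternative added after the data were seen, gave a median shift of 40 bp (38 bp as reported) and a median ratio of 0.966 (0.959 as reported). The depth is unknown and limits every rank, and the shared control means that the replicates are not fully independent.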
